A study of Mus musculus with 12 samples.

Results

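Leydig cells lie between the tubules of the testis, and their hormone, receptors and nuclear receptors were followed here across adult life in 7 genes: Insl3, Rxfp2, Lhcgr, Prlr, Nr5a1, Nr2f2 and Nr4a1. The genes were chosen by symbol, and the reads of every assembled transcript with that symbol that matches, lies within, shares a junction with or overlaps the exons of a reference transcript were summed per gene. This gave 7 of 31905 genes and loci, with 17 of 71967 assembled transcripts. Testis RNA had been sequenced from 12 wild-type male C57BL/6 mice, an inbred laboratory strain, in 4 age groups of 3 mice that were 3, 6, 12 or 18 months old (3M, 6M, 12M and 18M). The labels name no transgene and no treatment for any group. Each library came from its own mouse, whether the mice of an age shared a litter is not given in the sources used here, and in a whole testis fewer cells of a type and less RNA per cell cannot be told apart.

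Luteinizing hormone from the pituitary binds its receptor Lhcgr on Leydig cells, and the cAMP that follows drives the synthesis of testosterone. The same cells secrete INSL3, a peptide of the relaxin family that acts through the receptor Rxfp2 and is known for its role in the descent of the testis. Prolactin acts on Leydig cells through Prlr, a receptor without enzyme activity of its own that uses the kinase Jak2. The nuclear receptor Nr5a1 (steroidogenic factor 1) is required for steroid-producing cells, Nr2f2 (COUP-TFII) marks interstitial cells that can become Leydig cells, and Nr4a1 (NUR77) is induced quickly by hormones that raise cAMP.

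RefSeq gives a region before the start site for 6 of the 7 genes on GRCm38.p6, the build of these files. Nr5a1 had no entry. The 250 bases before the start are shown for Lhcgr and Prlr, whose reads were lowest at the late ages, for Insl3, the most abundant of the genes, and for Nr4a1, whose estimate went the other way. Capitals mark letters searched for on both strands: CAAGGTC (a form bound by NR5A1), AGGTCA (the core site of many nuclear receptors, which shares all but its last letter with the end of the former), CGTCA (the core site of cAMP-responsive factors) and TATAA. AAAGGTCA (a form bound by NR4A1, which contains AGGTCA) and TGACGTCA (the full cAMP site, which contains CGTCA) were searched as well.
Insl3, chr8:71689002-71689251, plus strand: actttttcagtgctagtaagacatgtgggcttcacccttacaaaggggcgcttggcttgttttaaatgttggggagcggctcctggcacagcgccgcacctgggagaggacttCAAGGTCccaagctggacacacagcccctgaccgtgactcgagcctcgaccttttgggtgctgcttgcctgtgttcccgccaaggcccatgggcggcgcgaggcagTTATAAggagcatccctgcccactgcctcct
Lhcgr, chr17:88792015-88792264, minus strand: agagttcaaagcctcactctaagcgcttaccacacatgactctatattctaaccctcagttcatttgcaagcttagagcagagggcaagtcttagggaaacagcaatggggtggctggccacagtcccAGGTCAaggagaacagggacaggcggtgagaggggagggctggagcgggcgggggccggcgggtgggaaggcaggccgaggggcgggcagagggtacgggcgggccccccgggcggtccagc
Prlr, chr15:10176988-10177237, plus strand: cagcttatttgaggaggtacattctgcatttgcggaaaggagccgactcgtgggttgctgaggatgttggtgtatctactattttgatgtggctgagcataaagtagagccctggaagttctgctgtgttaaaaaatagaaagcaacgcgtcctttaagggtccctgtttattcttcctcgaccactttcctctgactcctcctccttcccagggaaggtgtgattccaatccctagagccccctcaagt
Nr4a1, chr15:101266596-101266845, plus strand: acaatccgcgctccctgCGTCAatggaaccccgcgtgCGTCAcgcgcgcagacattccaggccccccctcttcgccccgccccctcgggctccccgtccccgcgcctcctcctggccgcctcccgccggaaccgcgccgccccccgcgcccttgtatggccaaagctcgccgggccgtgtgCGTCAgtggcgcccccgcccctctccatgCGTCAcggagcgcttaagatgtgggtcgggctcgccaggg

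The stretch before Insl3 held CAAGGTC 137 bases before the start, letters found in 3.33% of 32817 mouse regions of the same length. It also held TATAA on both strands in the run TTATAA, 30 and 31 bases before the start, against 22.79% of all regions. Before Lhcgr, AGGTCA lay 122 bases from the RefSeq start (14.03% of all regions). The assembled transcript of Lhcgr begins inside the RefSeq start, so this window is that of the annotation. The window before Nr4a1 held CGTCA 4 times, at 233, 213, 69 and 40 bases before the start, letters that 17.75% of all regions hold at least once. The window of the long Prlr transcript held none of the 6 motifs, nor did those of Rxfp2 and Nr2f2, and the window of the transcript NM_001253781 of Prlr held CGTCA once, at 230 bases. The Nr2f2 window is that of NM_183261, which held 1.63% to 47.9% of its reads, and NM_009697 had no window. The Rxfp2 window lies before exons with little coverage, as given below. AAAGGTCA (1.34% of all regions) and TGACGTCA (1.55%) were found before none of the 6 genes. These are matches of letters, and binding was not measured.

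The deposited counts summed to between 50924104 and 71803379 reads per library. CPM is the number of reads of a gene in each 1000000 reads of its library after TMM scaling, and FPKM, as deposited, also divides by transcript length and so allows genes to be compared with each other. By median FPKM over the 12 mice, Insl3 stood first at 808.9 (626.7 to 1516), followed by Nr4a1 at 17.2 (15.9 to 18.1), Nr5a1 at 8.74 (7.23 to 12.6) and Rxfp2 at 2.61 (2.15 to 3.08). Prlr followed at 1.65 (1.01 to 2.24), Nr2f2 at 0.766 (0.609 to 1.02) and Lhcgr at 0.685 (0.396 to 1.54). The ranges of the first 4 genes did not overlap. The value of Rxfp2 comes mostly from its last exons, as given below, and does not rank its whole transcript. Rxfp2 and Prlr overlapped in range although Rxfp2 was higher in all 12 mice, and the order of Nr2f2 and Lhcgr was not settled, with Nr2f2 higher in 7 of the 12.

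**Figure D1:**
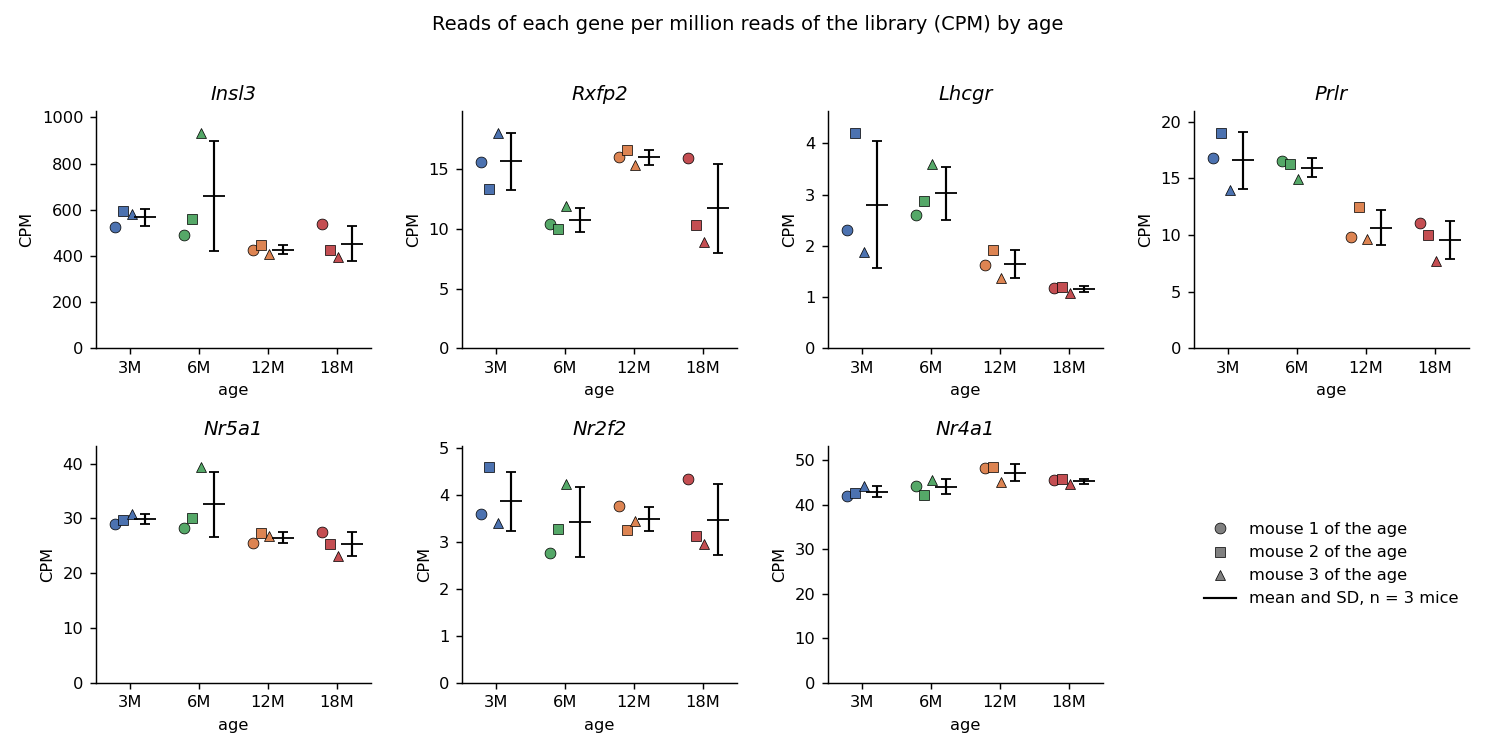
CPM (reads in each 1000000, vertical axis from 0) of the 7 genes in each mouse at 3M, 6M, 12M and 18M, with the mean and SD of 3 mice beside the points. The 12M and 18M mice lie below all 3M and 6M mice for Prlr and Nr5a1, the 18M mice are the lowest of all for Lhcgr, and mouse 6M-3 is the highest of the 12 for Insl3 and Nr5a1.

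Whether the reads of these genes change with age was asked first with the slope on age over all 12 mice. The change is given as the log2 change over the 15 months from 3M to 18M. Prlr was the 1 member that edgeR called at an adjusted p of 0.05 or less, and it fell. Of 25545 genes and loci tested, 0.168% were called, 0.114% as falling. All 7 genes passed the filter on low counts. At an unadjusted p of 0.05 or less, 4 members had falling slopes (Insl3, Lhcgr, Prlr and Nr5a1), against 8.39% of all genes falling at that level.

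Prlr, at chr15:10177238-10349180, encodes the receptor of prolactin. Its CPM was 16.8, 19.02 and 13.97 in the 3M mice, 16.5, 16.3 and 14.97 at 6M, 9.805, 12.4 and 9.67 at 12M, and 11.01, 9.996 and 7.73 at 18M. The 6 mice of the late ages lay below the 6 younger mice without overlap. Its mean was 16.6 ± 2.53 (SD, n = 3) at 3M and 9.58 ± 1.68 at 18M. The log2 change over 15 months was −0.88 (SE 0.15, 95% interval −1.19 to −0.56), to 0.545 of the level at the start, with an adjusted p of 0.0418 by edgeR's quasi-likelihood test. This call rested on single mice: without 3M-1, 3M-2, 6M-1, 6M-2, 6M-3, 12M-1, 12M-2, 18M-2 or 18M-3 the edgeR adjusted p lay between 0.0562 and 0.127. The direction was downward in each of these fits, with a slope of −0.066 to −0.052 per month over all 12 left-out mice.

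Lhcgr, at chr17:88741549-88791976, encodes the receptor of luteinizing hormone and had the largest estimated decrease of the 7 genes. Its CPM was 2.31, 4.21 and 1.88 at 3M, 2.60, 2.87 and 3.59 at 6M, 1.63, 1.92 and 1.375 at 12M, and 1.18, 1.19 and 1.08 at 18M. All 3 of the oldest mice were below every other mouse, and 12M-2 at 1.92 was above 3M-3 at 1.88. The log2 change over 15 months was −1.45 (SE 0.26, 95% interval −2.02 to −0.88), and its edgeR adjusted p of 0.0549 missed the threshold. The gene rested on 63 to 239 reads per library, the fewest of the members by median. DESeq2 called it with an adjusted p of 3.667e-05 where it called 1.87% of 29673 genes, and edgeR called it when mouse 3M-3 was left out (adjusted p = 0.0277).

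Insl3 (chr8:71689252-71690577), the Leydig hormone itself, had 22630 to 53260 reads per library. Its CPM was 526, 593 and 582 at 3M, 490.3, 558.5 and 934 at 6M, 425.5, 447 and 407 at 12M, and 537, 428 and 394 at 18M. The value of 6M-3 was 1.78 times the mean of the other 6M mice, while 18M-1 fell within the range of 3M. The log2 change over 15 months was −0.505 (95% interval −0.96 to −0.05) and was not called (edgeR, adjusted p = 0.287). Without 6M-3 the slope was −0.024 per month instead of −0.034 (edgeR, adjusted p = 0.197).

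Nr5a1 (chr2:38692656-38714542), the steroidogenic factor, had a smaller estimate. Its CPM was 29.0, 29.8 and 30.9 at 3M, 28.2, 30.1 and 39.3 at 6M, 25.4, 27.3 and 26.8 at 12M, and 27.5, 25.4 and 23.1 at 18M. The 6 mice of 12M and 18M lay below the 6 younger mice without overlap, and 6M-3 again stood above all others. The log2 change was −0.32 over 15 months (95% interval −0.56 to −0.085, edgeR adjusted p = 0.216), and without 6M-3 the slope was −0.017 per month in place of −0.021.

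Nr4a1 (chr15:101254296-101274794) was the only member with a rising estimate. Its CPM was 42.0, 42.6 and 44.3 at 3M, 44.3, 42.3 and 45.6 at 6M, 48.2, 48.4 and 45.1 at 12M, and 45.5, 45.75 and 44.7 at 18M. The 18M mice lay just above the 3M mice, and the 12M mean was the highest. Its log2 change over 15 months was 0.09 (95% interval −0.01 to 0.20, edgeR adjusted p = 0.387), the narrowest interval of the 7. Nr4a1 is an immediate early gene, and of the 21 genes of that kind listed (Fos, Jun and Egr1 among them) edgeR called none. At an unadjusted p of 0.05 or less, 3 had rising slopes (6.84% of all genes) and 1 a falling one (8.39%), and DESeq2 called 1 (1.87%). Those with the smallest p were Egr3, at 39.3 CPM at 3M and 49.9 at 18M (edgeR, adjusted p = 0.109), and Fosl2, at 2.59 and 2.01 CPM (edgeR, adjusted p = 0.171).

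Nr2f2 (chr7:70351950-70366746) showed no detectable slope. Its CPM was 3.60, 4.596 and 3.41 at 3M, 2.76, 3.29 and 4.24 at 6M, 3.78, 3.27 and 3.46 at 12M, and 4.34, 3.14 and 2.96 at 18M. The 4 ages overlapped throughout. The log2 change over 15 months was −0.11 (95% interval −0.47 to 0.25, edgeR adjusted p = 0.797). The libraries carry no strand, and 13.4% of the exon bases of Nr2f2 overlap B130024G19Rik on the opposite strand, so reads there cannot be told apart.

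**Figure D2:**
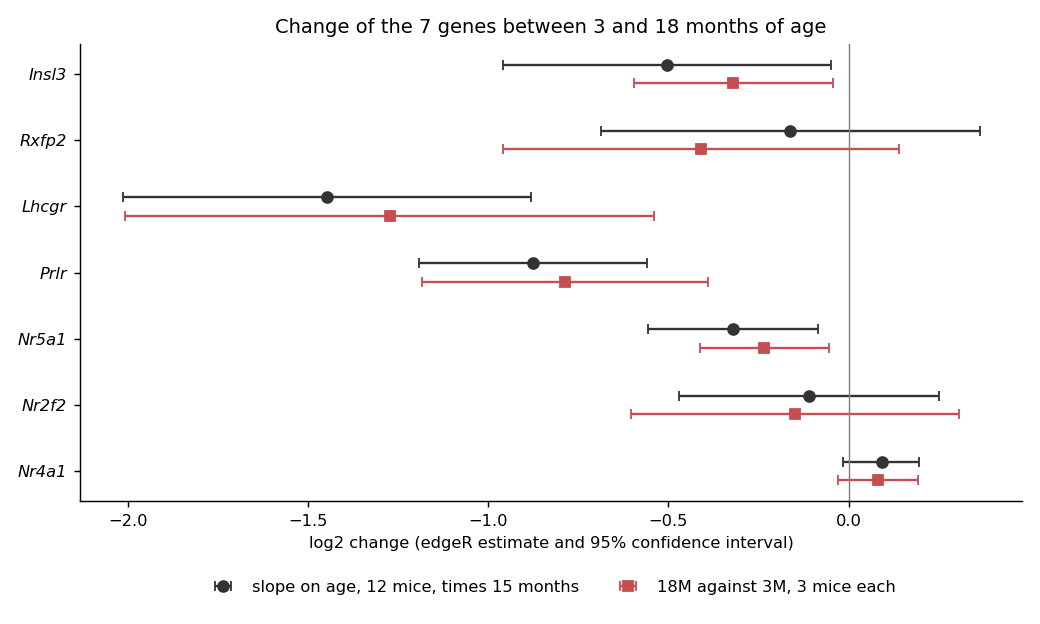
Log2 change of each gene with its 95% interval (horizontal axis, edgeR), from the slope over 12 mice times 15 months (circles) and from 18M against 3M with 3 mice each (squares). The intervals of Lhcgr and Prlr lie furthest below 0, at −2.02 to −0.88 and −1.19 to −0.56 for the slope, and that of Nr4a1 spans −0.01 to 0.20.

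Direct comparisons between ages gave no call by edgeR. In 18M against 3M, edgeR called 0 of the 7 members (0.0642% of 24923 genes). Of the 7, 4 had an unadjusted p of 0.05 or less (12.0% of all genes), and DESeq2 called Prlr and Lhcgr (1.01% of 29185 genes). The log2 difference was −1.27 (95% interval −2.01 to −0.54, edgeR adjusted p = 0.353) for Lhcgr and −0.79 (95% interval −1.19 to −0.39, edgeR adjusted p = 0.344) for Prlr. DESeq2 gave adjusted p-values of 0.0174 for Lhcgr and 0.000502 for Prlr. For Insl3 the log2 difference was −0.32 and for Nr5a1 −0.23. For Rxfp2 it was −0.41 in the summed counts, while its mean FPKM was 2.71 at 3M and 2.53 at 18M. Without overlap between the mice of 3M and 18M, 3 members were lower at 18M (Lhcgr, Prlr and Nr5a1, against 10.5% of all genes) and Nr4a1 was higher (9.14%). With 12M and 18M set together against 3M and 6M, Prlr and Nr5a1 were lower in all 6 late mice than in any of the 6 early mice, against 1.15% of all genes.

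Between consecutive ages, edgeR called 0 of the 7 members at each step. From 3M to 6M, where 0.0683% of 24887 genes were called, 1 member (Rxfp2) had an unadjusted p of 0.05 or less (3.89% of all genes) and DESeq2 called it (0.336%). From 6M to 12M, where 0.0402% of 24906 genes were called, Insl3, Rxfp2, Lhcgr and Prlr did (7.48% of all genes), and DESeq2 called Rxfp2 and Prlr (0.445%). The log2 differences at this step were −0.88 for Lhcgr, −0.63 for Insl3, −0.58 for Prlr and 0.57 for Rxfp2, with edgeR adjusted p-values of 0.582, 0.667, 0.529 and 0.322. Both steps of Rxfp2 are those of its summed counts, whose limits are given below. From 12M to 18M, where 0.016% of 24969 genes were called, Lhcgr alone had an unadjusted p of 0.05 or less (3.52% of all genes), at a log2 difference of −0.50, and DESeq2 called 0 (0.209%). A test for any difference between the 4 ages called 0 of the 7 in edgeR (0.0783% of 25545 genes), 5 at an unadjusted p of 0.05 or less (8.96%), and 2 in DESeq2 (Lhcgr and Prlr, 1.26%).

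Whether members moved apart from each other over age was tested on the log2 ratio of their counts, which does not depend on how a library is scaled. The slope of the ratio was set against all 369600 assignments of the 12 libraries to 4 ages of 3, in a two-sided exact permutation test adjusted over the 21 pairs, and 8 pairs had an adjusted p of 0.05 or less. Pairs that share a gene are not independent of each other, and the share of pairs called among other genes was not measured. Lhcgr was in 4 of the 8, with Nr4a1 (slope of −1.46 over 15 months on the log2 scale, exact p = 0.000671, adjusted p = 0.00704), Nr2f2 (−1.26), Nr5a1 (−1.05) and Insl3, relative to which it fell by 0.88. Prlr was in 3, with Nr4a1 (−0.98, exact p = 0.000601, adjusted p = 0.00704), Nr2f2 (−0.78) and Nr5a1 (−0.57). The remaining pair was Nr5a1 with Nr4a1 (−0.41, exact p = 0.00457, adjusted p = 0.0154). Lhcgr and Prlr thus had falling ratios to each of the 3 nuclear receptors. The pair of Prlr with Nr5a1 was not called without 3M-2, without 18M-3 or with the counts of transcripts of class = only, and the other 7 pairs were called under every alternative. The ratio of Lhcgr to Prlr had a slope of −0.48 (exact p = 0.0493, adjusted p = 0.0942), and that of Insl3 to Nr5a1 one of −0.17 (exact p = 0.189, adjusted p = 0.264). Lhcgr with Prlr was called without 3M-1 and without 3M-3. Insl3 with Nr4a1 (−0.58, exact p = 0.0238, adjusted p = 0.0555) was called with FPKM, without 6M-3 and without 18M-1. Insl3 with Prlr was called without 6M-3. Rxfp2 was in none of the 8. With FPKM in place of counts its pairs with Lhcgr and with Prlr were called, and without 3M-3 that with Lhcgr was. The summed counts of Rxfp2 were lower in the 4 libraries with reads assigned to NM_001289564, and its FPKM was not, as given below. Its absence from the 8 pairs holds for these counts.

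Along the exons of Prlr and Lhcgr, the slopes of separate stretches were read using the coverage that the assemblies give for each exon, summed over the transcripts of the gene and divided by the reads of the library in units of 1000000 after TMM scaling (scaled coverage). The stretches hold the same reads as the genes and were chosen after the gene results were seen, so their slopes are a description and carry no test. Prlr has a long transcript, NM_011169, of 10328 nt with a last exon of 8740 nt, and a shorter one, NM_001253781, of 3916 nt with a last exon of 2771 nt. The long one held 72.4% to 86.6% of the reads. NM_001253782 was listed at 0 reads in all 12 libraries. The protein-coding gene Gm21973 overlaps 1.5% of the exon bases of Prlr on the same strand. Scaled coverage of the last exon of NM_011169 was 0.136 ± 0.0227 in the 3M mice and 0.133 ± 0.00839 in the 6M mice (SD, n = 3). It was 0.0908 ± 0.00981 in the 12M mice and 0.0786 ± 0.0138 in the oldest, with a log2 slope over 15 months of −0.88. The 8 exons that both expressed transcripts share, of 954 nt, had a log2 slope of −1.37 over 15 months. In the last exon of NM_001253781 it was −0.60. The slopes of all 3 stretches of Prlr were negative. The first exon of NM_001253781 was at a coverage of 0 in the 12 libraries, and that of NM_011169 lay between 0 and 2.98.

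Lhcgr has 1 assembled transcript, NM_013582, with 11 exons. Its last exon encodes the membrane-spanning and intracellular part of the receptor, and the exons before it the hormone-binding part outside the cell. Scaled coverage of exons 1 to 10 was 0.183 ± 0.0634 in the 3M mice and 0.201 ± 0.051 in the 6M mice (SD, n = 3). It was 0.107 ± 0.0239 in the 12M mice and 0.0737 ± 0.00541 in the oldest. The log2 slope over 15 months was −1.43. Exon 11 had 0.0662 ± 0.0411 at 3M and 0.0284 ± 0.00187 at 18M, a log2 slope of −1.24. Coverage was uneven along the transcript, with a median before scaling of 7.16 in exons 1 to 10 and 2.40 in exon 11, which has 1589 nt. The slopes of both stretches were negative.

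**Figure D3:**
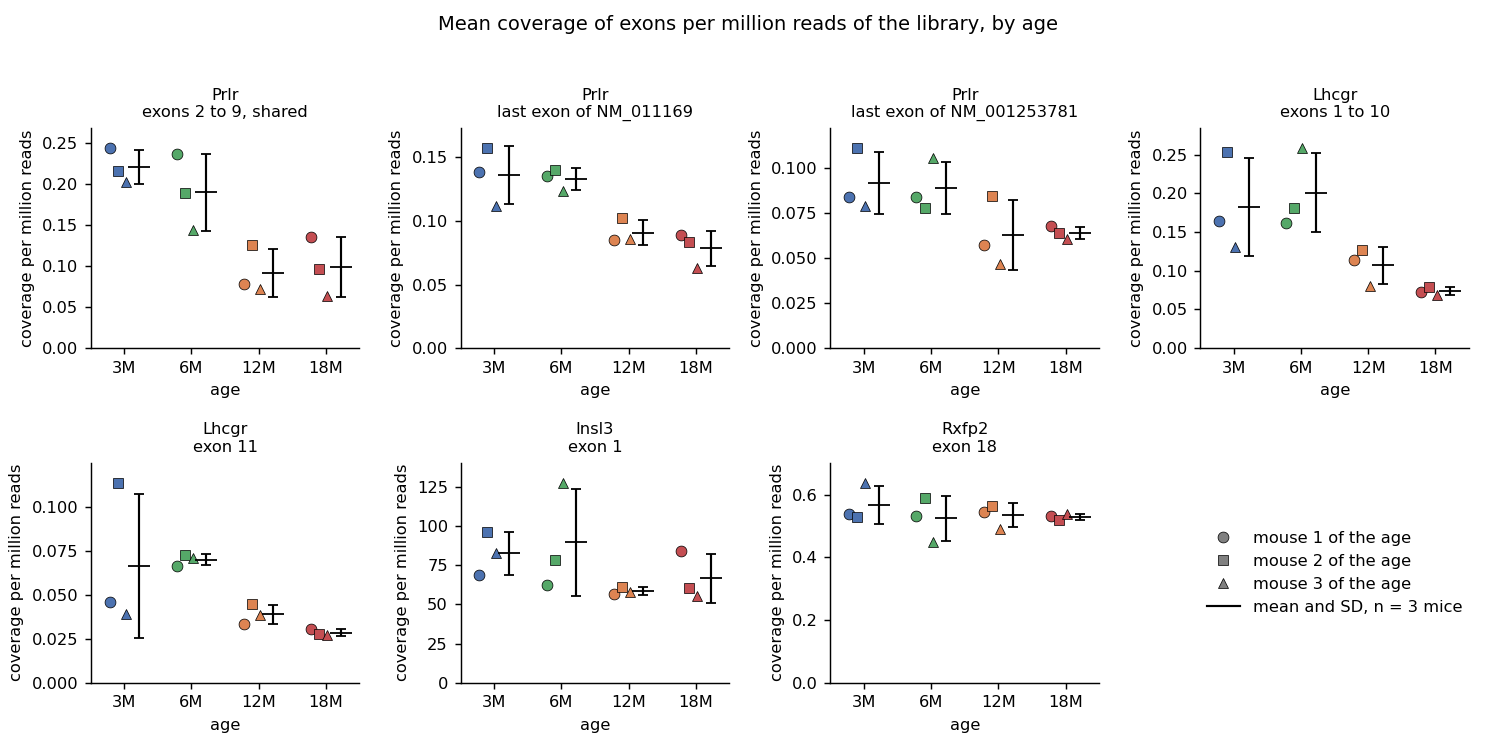
Mean coverage of exon stretches scaled to 1000000 reads of the library (vertical axis from 0) by age, with 1 point per mouse and the mean and SD of 3 mice. The stretches of Prlr and Lhcgr are lower at 12M and 18M, as in the last exon of NM_011169 with 0.136 at 3M and 0.0786 at 18M, while exon 18 of Rxfp2 is at 0.568 and 0.530.

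Insl3 has 2 exons, and the second, 406 nt or 69.2% of its exon bases, is overlapped on the same strand by the gene Jak3, which encodes a kinase of cytokine receptors in lymphocytes. The FPKM of Insl3 was 219 to 505 times that of Jak3 in the same library, and Jak3 lay between 8.84 and 13.3 CPM. Exon 1, which Jak3 does not reach, had a log2 slope of −0.45 over 15 months, and exon 2 of −0.50.

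Rxfp2 (chr5:150018675-150083342) showed reads mainly at its 3′ end. Exons 1 to 6 of the 18-exon transcript NM_080468 had a median coverage of 0.47 over the 12 libraries and were at 0 in 2 of them. Exons 7 to 15 had a median of 0.758, exons 16 and 17 of 5.82, and exon 18 of 30.1 (25.5 to 38.6). Exon 18 was covered 25.6 to 273.6 times as deeply as exons 7 to 15. The summed values of the gene therefore describe mostly its last exons. StringTie assembled a transcript of 3 exons and 5595 nt (MSTRG.16534.4) that starts at base 150066813 of chromosome 5 and ends beyond the annotated end. An antisense gene, Gm42557, overlaps 6.4% of the exon bases of Rxfp2.

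The summed CPM of Rxfp2 was 15.6, 13.3 and 18.1 at 3M, 10.4, 9.97 and 11.9 at 6M, 16, 16.6 and 15.4 at 12M, and 15.97, 10.4 and 8.91 at 18M. It differed between libraries with different assignments of reads to transcripts. In 6M-1, 6M-2, 18M-2 and 18M-3, 61.7% to 74.3% of the reads were assigned to NM_001289564, and in the other 8 libraries none were, with MSTRG.16534.4 holding 90.28% to 95.95% there. The gene sum was 8.91 to 10.4 CPM in those 4 libraries and 11.9 to 18.1 CPM in the other 8. On the FPKM scale the sums of the same libraries were 2.31 to 2.54 and 2.15 to 3.08, without separation. Scaled coverage of exon 18 was 0.568 ± 0.0606 in the 3M mice, 0.524 ± 0.0719 in the 6M mice, 0.534 ± 0.0382 in the 12M mice and 0.530 ± 0.00933 in the oldest (SD, n = 3). The slope on age was not called (log2 change over 15 months −0.16, 95% interval −0.69 to 0.36, edgeR adjusted p = 0.793). Exon 18 had a log2 slope of −0.06 over 15 months. The steps from 3M to 6M and from 6M to 12M that DESeq2 called for Rxfp2 were seen in the summed counts. In exon 18 the differences between these ages were within the spread between mice. Exon 18 was measured up to the annotated end, without the bases beyond it. The 4 libraries with reads in NM_001289564 are all of 6M or 18M. The remaining mice of these ages, 6M-3 and 18M-1, had none and stood at 11.9 and 15.97 CPM. In the 4 libraries the last exon of MSTRG.16534.4, which ends beyond the annotated end, was at a coverage of 0. In the other 8 it was at 24.7 to 35.1. The part of assignment in the differences between ages was not tested.

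**Figure D4:**
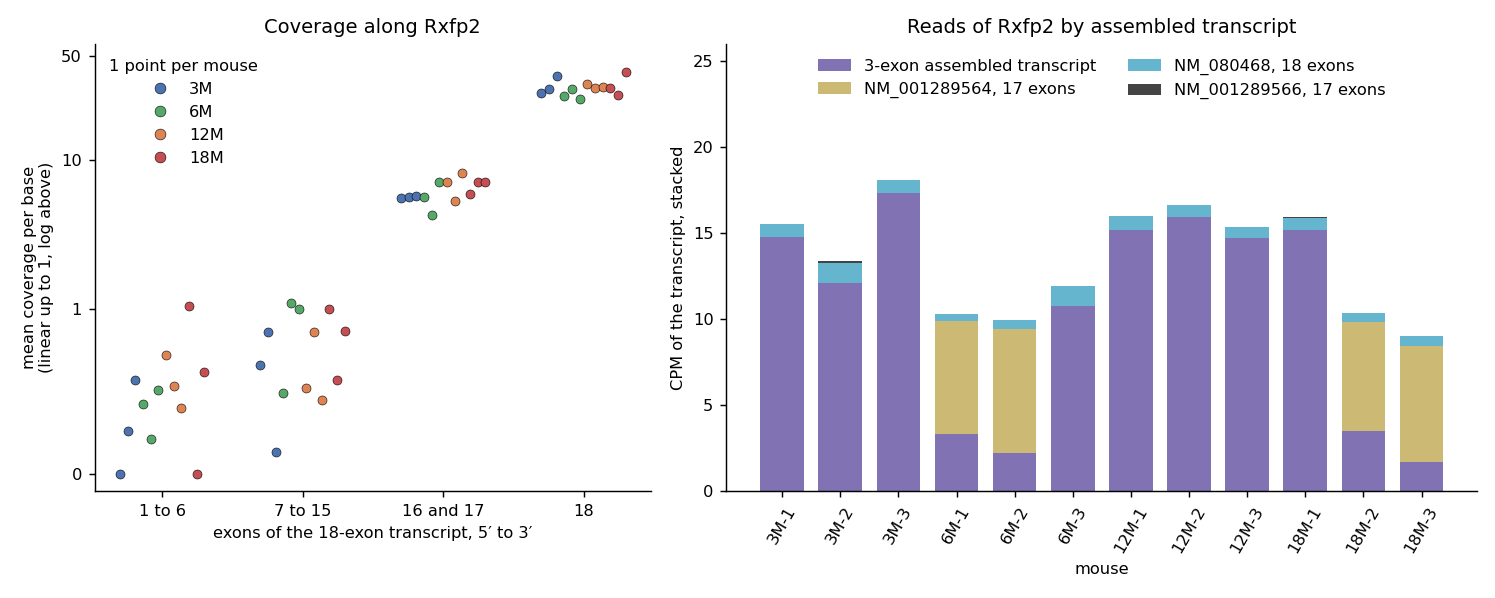
Left, mean coverage per base in 4 groups of exons of Rxfp2 (vertical axis linear up to 1 and logarithmic above), 1 point per mouse. Right, CPM of each assembled transcript stacked per mouse. Exon 18 has a median coverage of 30.1 against 0.47 in exons 1 to 6, and 4 mice have most of their reads in NM_001289564.

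Single transcripts of the 7 genes gave no call. In the slope on age over 58289 transcripts, where 0.0103% were called, edgeR called 0 of the members' transcripts, while 7.15% of all transcripts had an unadjusted p of 0.05 or less. Among the members these were NM_013564 of Insl3, NM_013582 of Lhcgr, NM_011169 and NM_001253781 of Prlr and NM_139051 of Nr5a1, all with falling estimates. DESeq2 called NM_013582 and NM_011169 (1.72% of all transcripts). For Nr5a1, NM_139051 held 54.6% to 85.8% of the reads and had 23.6 ± 1.21 CPM at 3M and 17.2 ± 3.88 at 18M (SD, n = 3; edgeR, adjusted p = 0.600). The second Nr5a1 transcript, MSTRG.11320.2, had 6.25 ± 1.86 and 7.50 ± 1.92 CPM. For Nr4a1, NM_010444 held 83.1% to 100% of the reads, with 40.0 ± 2.86 CPM at 3M and 42.1 ± 2.89 at 18M, and the assembled MSTRG.7645.1 was at 0 in 6 libraries. NM_009697 of Nr2f2 had 3.01 ± 0.563 and 2.86 ± 1.26 CPM at these ages.

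The pathways around these genes were read from lists of genes. The shares to set beside each list in the slope on age are those of all genes, of which edgeR called 0.168%, 8.39% had falling and 6.84% rising slopes at an unadjusted p of 0.05 or less, and DESeq2 called 1.87%. Of 27 genes from the luteinizing hormone receptor to cAMP (G proteins, adenylyl cyclases, kinase subunits, phosphodiesterases), edgeR called 0 in the slope, 7 had falling and 1 a rising slope at an unadjusted p of 0.05 or less (8.39% and 6.84% of all genes), and DESeq2 called 4 (1.87%). The median slope was −0.0054 per month on the log2 scale, against 0.0001 over all genes. Besides Lhcgr, the smallest p was that of Rapgef4, a cAMP-activated exchange factor, at 13.9 CPM at 3M and 10.6 at 18M (edgeR, adjusted p = 0.072).

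Of 12 genes of prolactin signalling, Prlr alone was called, with 6 falling at an unadjusted p of 0.05 or less, 2 called by DESeq2 (Prlr and Jak2, the kinase bound to the receptor), and a median slope of −0.0154 per month. Of 9 hormones and receptors of the relaxin family, 5 passed the filter and edgeR called 0, 1 of them (Insl3) had a falling slope at an unadjusted p of 0.05 or less, and DESeq2 called 0. Insl6, a relative of Insl3 made in germ cells, was at 77.9 CPM at 3M and 85.0 at 18M (edgeR, adjusted p = 0.330). Rln1, Rln3, Rxfp3 and Rxfp4 were too low to be tested. Among 27 transcription factors of Leydig and steroid-producing cells, 25 were tested, edgeR called 0, 5 had falling slopes at an unadjusted p of 0.05 or less, DESeq2 called 1, and the median slope was −0.0073 per month. The smallest p there was that of Mef2d, at 26.1 CPM at 3M and 21.5 at 18M (edgeR, adjusted p = 0.134).

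The genes that Lhcgr and Nr5a1 act on in steroid synthesis were measured as well. Of 20 steroidogenic enzymes and carriers, edgeR called 2 in the slope, both falling, 10 had falling and 1 a rising slope at an unadjusted p of 0.05 or less, DESeq2 called 6, and the median slope was −0.0134 per month. Cyp17a1, which makes androgens from progesterone and pregnenolone, went from 152 CPM at 3M to 55.6 at 18M (edgeR, adjusted p = 0.000132). Cyp11a1, which cleaves the side chain of cholesterol, went from 67.8 to 23.2 CPM (edgeR, adjusted p = 0.00564). Star, which brings cholesterol into the mitochondrion, was at 38.2 and 21.4 CPM (edgeR, adjusted p = 0.109).

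**Figure D5:**
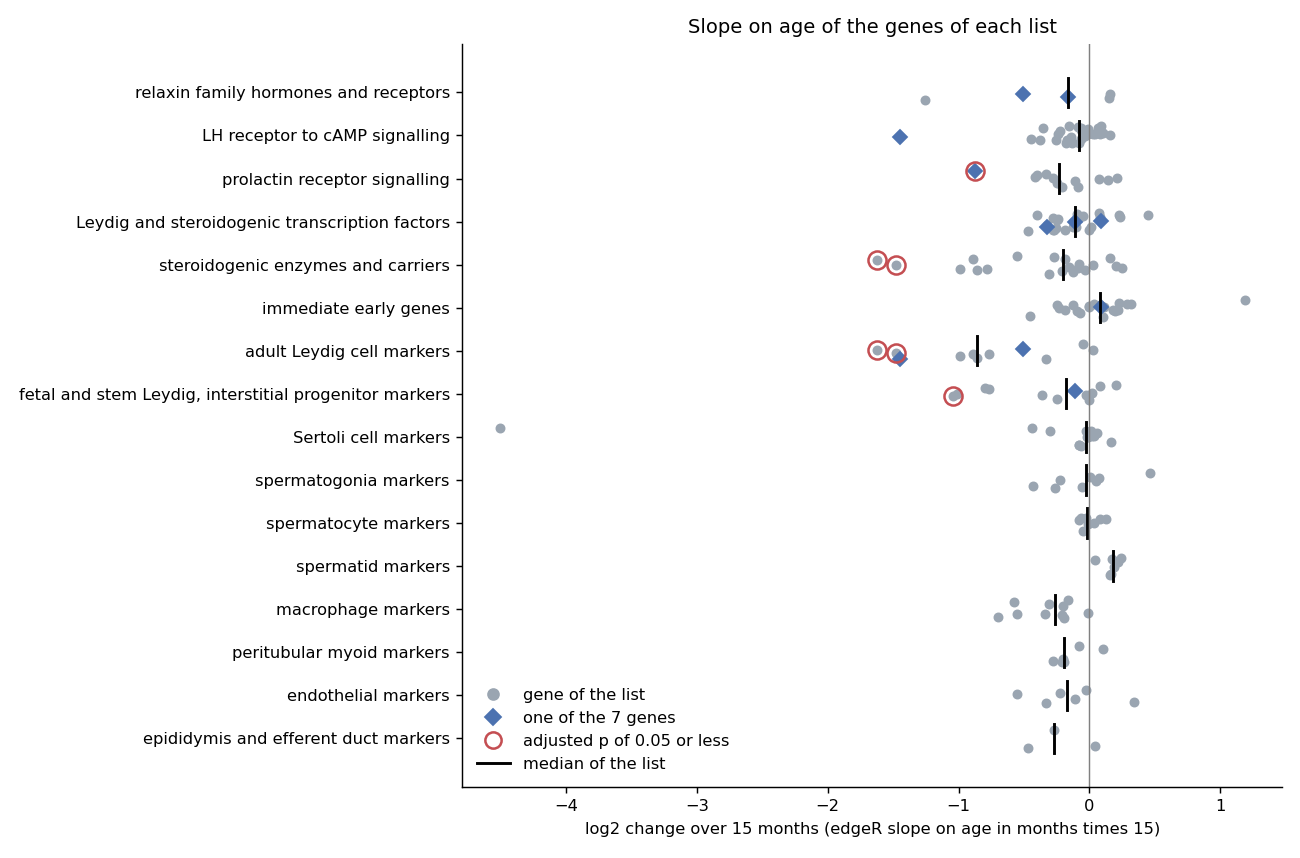
Log2 change over 15 months (horizontal axis, edgeR slope times 15) of the tested genes of 16 lists, 1 point per gene, with the 7 genes as diamonds, called genes ringed and a bar at the median. The called genes are Prlr, Cyp17a1, Cyp11a1 and Col3a1, all below 0.

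Of 11 adult Leydig markers, edgeR called 2 as falling in the slope (Cyp17a1 and Cyp11a1), and 8 had falling slopes at an unadjusted p of 0.05 or less, against 8.39% of all genes. The members Insl3 and Lhcgr are among the 8. DESeq2 called 7 of the 11, against 1.87% of all genes, and the median slope was −0.0571 per month. The summed CPM of the 9 markers that are not members was 641 to 697 in the 3M mice, 666 to 837 in the 6M mice, 485 to 531 in the 12M mice and 399.9 to 542 in the oldest, so the mice of 12M and 18M lay below those of 3M and 6M. Hsd3b1, a defining steroidogenic enzyme, was at 33.7 CPM at 3M and 40.6 at 18M, Ptgds at 143.5 and 172 and Fabp3 at 79.7 and 72.8, with no call and no unadjusted p of 0.05 or less for any of the 3, and none of the 11 markers was at 0. The part of this shift in the results for Lhcgr, Prlr, Insl3 and Nr5a1 was not tested. Of 12 markers of fetal and stem Leydig cells and interstitial progenitors, which include Nr2f2, Col3a1 was called (9.67 CPM at 3M, 4.76 at 18M, edgeR, adjusted p = 0.0484), 5 had falling slopes at an unadjusted p of 0.05 or less, and DESeq2 called 4.

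Other cell types of the testis gave no called marker by edgeR. At an unadjusted p of 0.05 or less, 2 of 14 Sertoli cell, 1 of 8 spermatogonia, 0 of 8 spermatocyte, 2 of 10 macrophage, 0 of 6 peritubular myoid and 2 of 6 endothelial markers had falling slopes, and 3 of 8 spermatid markers had rising ones. DESeq2 called 2 spermatid markers and 0 in the other 6 lists. The median slope per month was −0.0174 in macrophage, −0.0132 in peritubular myoid and −0.0112 in endothelial markers. It was −0.0015 in Sertoli, −0.0017 in spermatogonia, −0.0013 in spermatocyte and 0.0119 in spermatid markers, against 0.0001 over all genes. The smallest p were those of Inha and Amh (Sertoli), Zbtb16 and Kit (spermatogonia), Spo11 and Piwil1 (spermatocytes), Acrv1 and Spaca1 (spermatids), Csf1r and Cx3cr1 (macrophages), Actg2 and Myh11 (myoid cells), and Pecam1 and Cdh5 (endothelium), with edgeR adjusted p-values of 0.152 or more. Of 8 epididymis and efferent duct markers, Adam7, Lcn5 and Spink12 were at 0 in all 12 libraries, 3 were tested, and edgeR and DESeq2 called 0, with Esr1 falling at an unadjusted p of 0.05 or less.

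In mouse 6M-3, the summed adult Leydig markers without the members were 837 CPM against 399.9 to 728 in the other 11, and the summed Sertoli markers 1746 against 1326 to 1407. Of 16 genes examined at 6M, which are the members and the adult Leydig markers, all but Cyp11a1 and Prlr were highest in that mouse of the 3. The part of this mouse in the results was measured only by leaving it out, as given for Prlr, Insl3 and Nr5a1 above.

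The genes whose levels were most like those of each member over the 12 mice were found by Pearson's r of log2(CPM + 1) among 15338 genes with a mean of 1 CPM or more, as a description. All such values share the same libraries, and age and mouse 6M-3 are part of them. For Prlr they were Fads2 (r = 0.964, Spearman's rho = 0.93), a desaturase of fatty acids, Cped1 (0.959, 0.958) and Ephx1 (0.958, 0.916), an epoxide hydrolase. For Lhcgr they were Fads1 (0.95, 0.958), a second desaturase, Slc7a8 (0.945, 0.923), an amino acid transporter, and Fads2 (0.945, 0.944). Fads2 was thus among the closest genes of both receptors, and it was called in the slope (76.1 CPM in the median mouse, 54.6 to 111, edgeR adjusted p = 0.0285), as was Ephx1 (edgeR, adjusted p = 0.0171).

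For Insl3 the closest genes were Tmem176b (r = 0.978, rho = 0.979), Cpe (0.973, 0.86), which trims peptide hormones, and Pkdcc (0.97, 0.958). For Nr5a1 they were Pdlim2 (0.964, 0.881), Insl3 (0.961, 0.93) and Csdc2 (0.954, 0.902). Without the 2 mice farthest from the median, 6M-3 and 18M-3, the r of Nr5a1 with Insl3 was 0.889 and with Pdlim2 0.826, and that of Insl3 with Tmem176b 0.955. Nr4a1 was closest to Dlx6 (r = 0.974, rho = 0.986), Fam184b (0.906, 0.825) and Rsbn1 (0.906, 0.846), and Nr2f2 to Pygm (0.873, 0.839), Supt7l (0.861, 0.797) and Crlf3 (0.855, 0.762). Rxfp2 was closest to Rab11b (0.858, 0.895), Acp6 (0.832, 0.804) and Dusp28 (0.818, 0.832). Between the members, r was 0.887 for Lhcgr with Prlr and 0.035 for Insl3 with its receptor Rxfp2. The values of Rxfp2 in these correlations are the summed CPM, which covered mostly exon 18 and was lower in the 4 libraries whose reads were assigned to NM_001289564.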

How the data were processed

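Testis RNA of 12 mice was depleted of ribosomal RNA and sequenced in pairs with a kit that does not keep the strand. The authors aligned the reads to mm10 with HISAT2 and assembled and quantified transcripts with StringTie 1.3.3b. The deposited table holds an estimated count (coverage times length over read length) and an FPKM per transcript and library, and both were used as deposited by the authors. The coverage of each exon was read as a signal from the deposited assemblies of each library.

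Counts of transcripts of class =, c, j or o were summed per gene symbol, and other transcripts were kept as loci of their own. The test of these sums was the quasi-likelihood F-test of edgeR (version 4.0.16, R version 4.3.3; TMM, filterByExpr, Benjamini-Hochberg adjustment over all genes and loci tested, a call at 0.05 or less), with all 12 libraries for the slope on age in months and for any difference, and with 6 libraries in a comparison of 2 ages. Ratios were tested over all assignments of libraries to ages, and groups and mouse numbers came from the labels. The estimated counts are whole numbers as deposited, and the test scripts were tried on simulated data. The exact tests and figures were made in Python 3.11.15 (pandas 2.3.3, numpy 2.4.6, matplotlib 3.10.9, scipy 1.17.1). Overlaps came from GENCODE vM21, sequences from RefSeq on GRCm38.p6. No protein sequence was used here.

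The deposited counts of a library summed to a median of 56236682 reads. TMM factors lay between 0.984 and 1.02. No 2 libraries of an age were the same within sampling noise, and each was counted as 1 replicate.

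Named were the 7 genes with their transcripts of 1 CPM or more in the mean and those overlapping them, the genes called in each list (at most 4, or the 2 with the smallest p where none was called), defining markers, and the 3 genes with the highest r with each member. The members and lists were chosen with earlier results of these data known. Alternatives were library size only, DESeq2's size factors, other filters, DESeq2 1.42.0, the mouse number as a block, all class codes or class = only, log2 of age, limma 3.58.1 on log2(FPKM + 0.1) and log2(FPKM + 1), all 12 libraries in pairwise fits, a log2 limit of 1, unadjusted p, each library left out, and, added after seeing the data, exon coverage.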

Additional observations from a re-analysis of the deposited data

How the results depend on the processing

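The number of members called in the slope on age was 1 (Prlr). It was 2 (Lhcgr and Prlr) with all class codes summed and with DESeq2, 0 with class = only and with limma on FPKM at either pseudocount, and 0 to 2 with 1 library left out, and 4 at an unadjusted p of 0.05 or less. In the comparison of 3M with 18M it was 0, with 2 by DESeq2 and 4 unadjusted. For any difference it was 0, with 2 by DESeq2 and 5 unadjusted, from 3M to 6M 0, with 1 in both, from 6M to 12M 0, with 2 and 4, and from 12M to 18M 0, with 1 unadjusted. No comparison other than the slope gave a call with a library left out, 0 to 0 in each. The adjusted p in the slope, by edgeR, DESeq2 or limma, lay between 1.528e-06 and 0.127 for Prlr over 23 alternatives, 11 of which called it, and between 3.667e-05 and 0.183 for Lhcgr, 3 of which called it. With class = only it was 0.0875 for Prlr, and with limma 0.0802 and 0.0801. DESeq2 called 2 transcripts of members where edgeR called 0. The genes called over all lists were 4 by edgeR, 21 by DESeq2 and 3 with the replicate block. The cause of these differences between settings was not tested. The pairs of members that moved apart were 8, and 7 to 11 under the alternatives, 7 to 10 with a library left out.

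The slope of Rxfp2, −0.0108 per month and not called, was 0.057 with class = only, −0.0216 to 0.001 with a library left out (the positive value without 18M-3) and 0.027 in the coverage of exons 7 to 15, and its log2 difference of 18M against 3M was 2.46 with class = only, which drops the 3-exon transcript. The slope of Nr2f2, −0.0073 and not called, was −0.0179 to 0.0007 with a library left out (the positive value without 3M-2). In none of these was Rxfp2 or Nr2f2 called.

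The mouse numbers are not known to mark a litter or day. Deviations from the age means of mice with the same number had r between −0.076 and 0.085, and with another number between −0.1 and 0.072. With the mouse number as a replicate block, the number of members called in the slope was 1, Prlr (adjusted p = 0.0257 by edgeR), and Lhcgr had 0.0893. Lhcgr had the fewest reads of the members by median, at 63 to 239 per library, and the effect of depth on its call was not tested.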
